A study of Mus musculus with 95 samples.

Results

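This account covers 40 chaperone and co-chaperone genes among the 39179 genes of the counts table, in the cerebral cortex of mice with CAG repeats of set lengths knocked into the Huntington's disease gene Htt. They were chosen by name as chaperone and heat shock genes, with earlier results of these data known, and all 40 were in the table and passed the filter on low counts in every comparison. The knock-in mice were heterozygous animals of the Q20, Q50, Q92 and Q140 lines, which carry 20, 50, 92 and 140 CAG repeats by their labels. Wild-type mice of the same C57BL/6 strain were housed with Q20 mice (WTwithQ20) or with Q50 mice (WTwithQ50). Each line and each wild-type group had 8 libraries at 10 months and 8 at 6 months, 4 from females and 4 from males, except Q140 at 10 months, which had 7 with 3 males. The Q20 and Q50 lines were each set against the wild types they were housed with, and the longer-repeat lines against the average of the WTwithQ20 and WTwithQ50 means, so that comparisons at an age share control libraries and are not independent of each other. The Q92 and Q140 mice each had a housing of their own, which none of these wild types shared. Line and housing therefore cannot be told apart in the Q92 and Q140 comparisons. The labels number the libraries of a group without saying that each came from its own animal, so that p-values measure the spread between these libraries. The RNA came from cortex tissue, in which fewer cells of a type and less RNA per cell cannot be told apart.

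Chaperones bind unfolded or partly folded proteins and hold, fold or hand them on for degradation. HSP70 proteins work in cycles driven by J-domain co-chaperones, which deliver substrates and start ATP hydrolysis, and by exchange factors such as the HSP110 proteins and BAG proteins, while HSP90 acts later on selected clients and the ring-shaped chaperonin TRiC folds actin and tubulin. Under proteotoxic stress the transcription factor HSF1 induces the inducible members, and stress in the endoplasmic reticulum induces the resident chaperone Hspa5 through a separate pathway. These systems are studied in Huntington's disease because HSP70, J-domain proteins and TRiC alter the aggregation of polyglutamine proteins in cell and test-tube models.

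The libraries held 30334161 to 41082838 counts each, with a median of 34123230, and mitochondrial transcripts took 9.08% to 12.6% of them in 93 libraries and 13.6% and 14.7% in the other two, male replicate 3 of Q92 and female replicate 4 of Q50, both at 6 months. The cortical markers Slc17a7 and Tbr1 were present in every library, with lowest levels of 759 CPM (counts scaled to library size) and 95.1 CPM. The summed level of 15 genes of striatal projection neurons varied between groups and lay at 599 to 2333 CPM over the knock-in libraries and at 634 to 1786 CPM over the wild types. Total Htt counts, which do not separate the knock-in from the wild-type allele, averaged 196 ± 13.9 CPM in Q140 mice at 10 months (SD, n = 7) and 221 ± 19.6 CPM in wild types of that age (SD, n = 16).

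Promoters are printed for members that differed between ages or are named in the relations between libraries. RefSeq windows of the GRCm38.p6 build, from which the 250 bases before the start were read, were held for 31 of the 40 genes. HSF1 binds repeats of the unit GAA and its reverse TTC. A pair of such units, GAANNTTC or TTCNNGAA on either strand, was present in 12 of the 31 genes (38.7%) and in 14.5% of 27025 genes with a window. These 12 were Hspa1a, Hspa1b, Hsph1, Hspb1, Hspd1, Hspe1, Dnaja1, Dnajb4, Dnajb6, Stub1, Cct2 and Cct5. A run of 3 units, GAANNTTCNNGAA or TTCNNGAANNTTC, which always also contains a pair, was present in Hspd1, Hspe1 and Dnajb6, 9.68% of the 31 and 0.514% of all genes with a window. Hspd1 and Hspe1 start back to back, so that their matches may be the same site counted for both. The matches of Hspa1a and Hspa1b are likewise not independent, as the genes are near-identical copies. The stretches below hold the matches with their flanks, 5′ to 3′ towards the gene, with the matching bases in capitals.
Hsph1: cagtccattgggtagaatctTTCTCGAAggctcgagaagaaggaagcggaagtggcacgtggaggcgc
Hspe1: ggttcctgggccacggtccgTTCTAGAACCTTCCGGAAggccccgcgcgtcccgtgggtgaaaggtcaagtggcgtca
Hspa1a: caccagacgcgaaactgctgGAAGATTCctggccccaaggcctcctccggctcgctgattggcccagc
Hspb1: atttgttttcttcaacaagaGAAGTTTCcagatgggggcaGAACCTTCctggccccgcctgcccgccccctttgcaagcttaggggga
They lie at chr5:149636322-149636389 on the minus strand (Hsph1), chr1:55088039-55088116 on the plus strand (Hspe1), chr17:34972213-34972280 on the minus strand (Hspa1a) and chr5:135887782-135887869 on the plus strand (Hspb1). Hspa1b, at chr17:34959295-34959362 on the minus strand, had the same 68 letters as Hspa1a, and its match likewise began 104 bases before the start.

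The endoplasmic reticulum stress element, CCAAT and CCACG separated by 9 bases on either strand, was present in 3 of the 31 genes (9.68%) and in 0.13% of all genes with a window. The 3 were Hspa5, the chief HSP70 of the endoplasmic reticulum, Hsp90b1, its HSP90, and Dnajc3, one of its J-domain proteins. Capitals mark the element with its spacer.
Hspa5: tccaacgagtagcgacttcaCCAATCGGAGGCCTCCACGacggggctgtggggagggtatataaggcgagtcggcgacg
Dnajc3: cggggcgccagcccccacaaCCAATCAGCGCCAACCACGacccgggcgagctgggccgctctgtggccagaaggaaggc
These stretches lie at chr2:34772005-34772083 on the plus strand (Hspa5) and chr14:118937807-118937885 on the plus strand (Dnajc3), and Hsp90b1 had 2 matches in its window. A match describes these letters and is no evidence of binding.

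The 40 genes spanned a wide range of abundance. On the length-corrected FPKM scale (fragments per kilobase of transcript and library size), the medians over the 95 libraries ran from 2.48 for Bag3, a co-chaperone of selective autophagy, to 724 for Hspa8, the constitutive HSP70 of the cytosol that also uncoats clathrin vesicles. Above 100 FPKM lay 4 genes, Hspa8, Hsp90ab1 (463), Hsp90aa1 (335) and Hsp90b1 (115), and 28 lay between 15 and 100 FPKM. The 8 below 15 FPKM included the stress-inducible HSP70 genes Hspa1a (3.003) and Hspa1b (2.81), the small heat shock protein gene Hspb1 (4.204) and the regulator Hsf1 (13.5). The constitutive Hspa8 was thus the most abundant HSP70 gene in these libraries, and the inducible ones had the lowest deposited values. The values of Hspa1a and Hspa1b depend on how reads shared by these near-identical copies were counted, which is not known. Among the small heat shock proteins Cryab, a holdase abundant in oligodendrocytes and astrocytes, had 58.1 FPKM and Hspb8, the partner of Bag3, had 6.64 FPKM. The 5 measured TRiC subunits lay close together, from 41.2 FPKM for Cct4 to 72.8 FPKM for Tcp1.

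**Figure D1:**
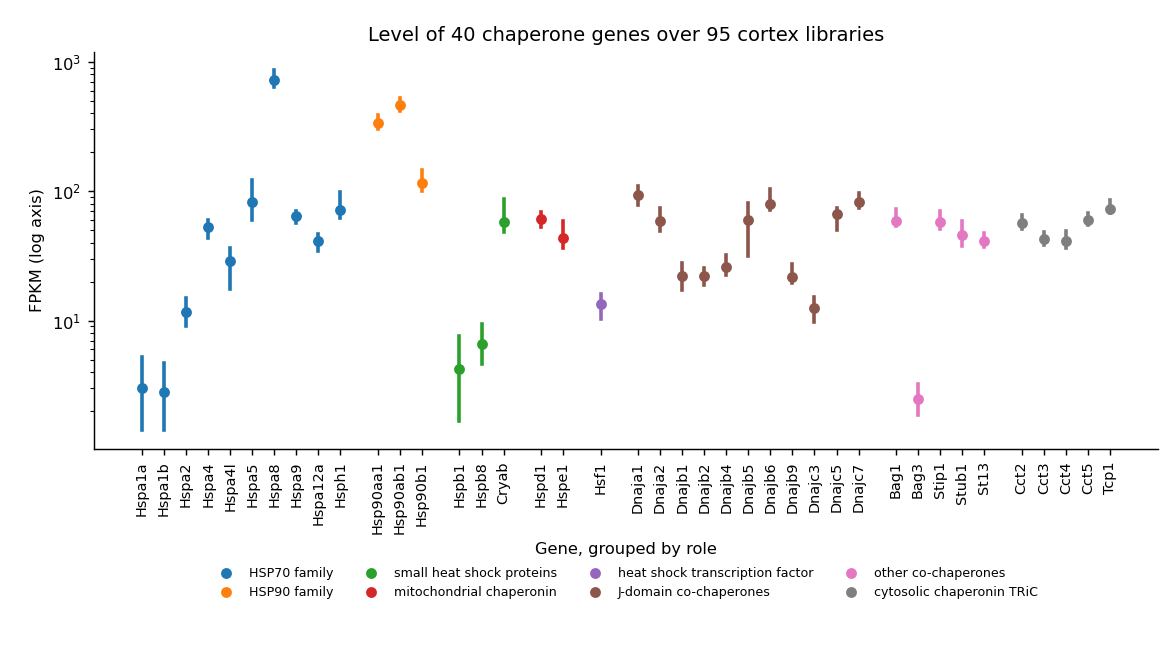
FPKM on a log axis (vertical) of the 40 genes, grouped by role (horizontal), over all 95 libraries; points and bars give the median with the lowest and highest library. Hspa8 stands at the top with 723.8 FPKM and Bag3 at the bottom with 2.48 FPKM.

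Most of the genes varied little between libraries of a group. The standard deviation of log2 CPM within groups of 1 line, age and sex had a median of 0.0823 over the 40 genes and 0.139 over all genes tested. All genes were not matched to the 40 for abundance, so that the smaller spread is not shown to be particular to chaperones. The standard deviation was smallest for Dnajc7 (0.0403), a J-domain protein that binds HSP70 and HSP90, and largest for Hspb1 (0.354), Hspa1b (0.302), Hspa1a (0.282) and Dnajb5 (0.27). The reads of Hspa1a and Hspa1b come from near-identical copies, and how reads shared by both were counted is not given in the sources used here. The level of each and the split between the pair are therefore uncertain.

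No knock-in line differed from its wild types in any of the 40 genes at 10 months by edgeR's quasi-likelihood test with Benjamini-Hochberg adjustment over 17813 genes (threshold 0.05). The same test called 4.35% of all genes in Q20, 0.0561% in Q50, 0.853% in Q92 and 1.2% in Q140 mice. At an unadjusted p under 0.05 it marked 3, 0, 1 and 5 of the 40 genes in Q20, Q50, Q92 and Q140 mice, against 21.3%, 2.4%, 14% and 12.9% of all genes. DESeq2 called 0 of the 40 in each line, and limma voom called 2 in Q20 mice, 0 in Q50, 0 in Q92 and 1 in Q140. The shares of all genes called by these tools are not given, here or below, so that their counts cannot be read as many or few. The 2 in Q20 mice were Dnajb2, a neuronal J-domain protein, and Stub1, the ubiquitin ligase CHIP that works with HSP70, with quasi-likelihood log2 fold changes of -0.093 ± 0.041 and -0.11 ± 0.041 (SE). The gene called in Q140 mice was Bag1, an HSP70 exchange factor, at -0.087 ± 0.029. All 3 were named with their values known. Voom also called Dnajb2 higher in WTwithQ20 mice, the reference of the Q20 line, than in WTwithQ50 mice (0.12, adjusted p = 0.0423). The median log2 fold change of the 40 genes was 0.0042, 0.013, -0.014 and 0.033 in the lines from Q20 to Q140, beside -0.0016, 0.00033, 0.0014 and -0.00098 over all genes.

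At 6 months the test called 1 of the 40 genes in 1 line, Cryab in Q92 mice, which was higher by 0.18 ± 0.058 on the log2 scale (adjusted p = 0.043). It called 0 of the 40 in Q20, Q50 and Q140 mice. Of 17716 genes it called 0.0169% in Q20, 0.0226% in Q50, 7.83% in Q92 and 3.52% in Q140 mice, so that 1 of 40 in Q92 mice was a smaller share than over all genes. At an unadjusted p under 0.05 it marked 0, 0, 3 and 3 of the 40 in the lines from Q20 to Q140, against 2.25%, 5.9%, 19.4% and 14.7% of all genes. DESeq2 and voom both called 0 in Q20 and Q50 mice. In Q140 mice DESeq2 called 1, Dnajc7, and voom called Dnajc7 and the TRiC subunit gene Cct5, whose quasi-likelihood log2 fold changes were -0.067 ± 0.022 (adjusted p = 0.082) and -0.078 ± 0.029 (adjusted p = 0.137). Dnajc7 and Cct5 were chosen after their values were seen.

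**Figure D2:**
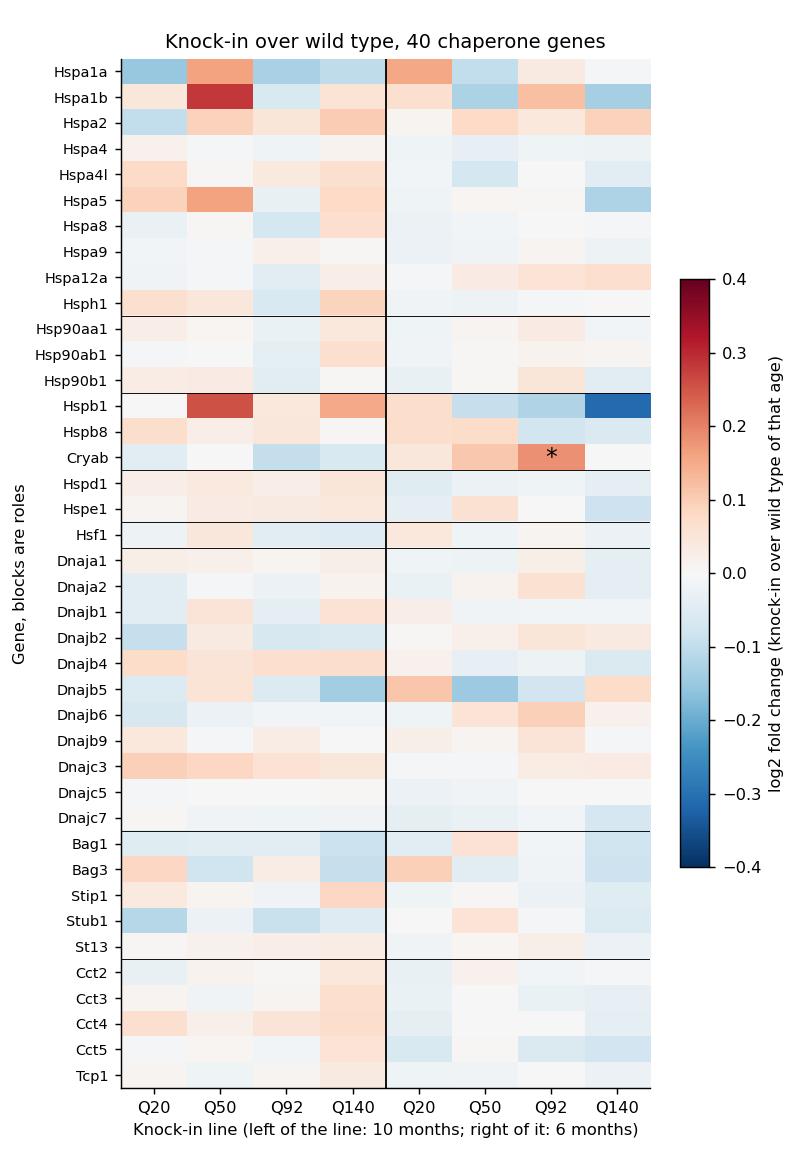
Colour gives the log2 fold change of each knock-in line over wild type for the 40 genes (rows, in blocks by role), with the 4 lines at 10 months left of the vertical line and at 6 months right of it. The star marks Cryab in Q92 mice at 6 months (0.18), the 1 gene and line past an adjusted p of 0.05.

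The intervals around these differences were narrow for most of the genes. In the 8 line comparisons the 95% interval lay within 0.32 of 0 on the log2 scale for 36 to 39 of the 40 genes, against 65.3% to 71.6% of all genes tested. All genes were not matched to the 40 for abundance here either. The median standard error was 0.036 to 0.043 on the log2 scale, and the widest were 0.15 to 0.18 for Hspb1 or Hspa1b. Hspb1 gave the lowest fitted value of any of the 40, -0.31 ± 0.15 in Q140 mice at 6 months (adjusted p = 0.341), with an interval of -0.62 to 0.00022. Hspa1b gave the highest, 0.28 ± 0.18 in Q50 mice at 10 months (adjusted p = 1), with an interval of -0.072 to 0.64. Neither passed the threshold. In all 320 pairs of a gene and a line comparison the ranges of knock-in and wild-type libraries overlapped. The share of overlapping ranges over all genes was not computed, so that this count is not shown to be particular to the 40.

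The inducible HSP70 genes gave no difference between lines and wild types past the threshold. Wild-type levels here and for the other named genes pool both housings, while the Q20 and Q50 fold changes use the wild types of their own housing alone. The median level of Hspa1a at 10 months, with the lowest and highest library in brackets, was 7.42 (5.07 to 10.2) in wild types, 6.395 (5.17 to 13.5) in Q20, 7.28 (5.21 to 8.77) in Q50, 6.58 (4.22 to 9.13) in Q92 and 6.88 (5.29 to 8.89) in Q140 mice, in CPM. At 6 months it was 9.26 (6.56 to 14.6) in wild types, 9.77 (8.76 to 11.3) in Q20, 10.1 (7.96 to 12.3) in Q50, 10.2 (8.104 to 11.8) in Q92 and 8.88 (7.696 to 13.1) in Q140 mice. Every group's range overlapped every other's within an age, and the highest library at 10 months was a Q20 library with 13.5 CPM. Hspa1b, its near-identical neighbour on chromosome 17, had 7.38 (3.96 to 9.35) in wild types, 7.87 (4.91 to 13.5) in Q20, 7.55 (4.74 to 10.8) in Q50, 6.85 (4.37 to 8.04) in Q92 and 6.74 (4.82 to 10.8) in Q140 mice at 10 months. At 6 months its level was 8.54 (6.73 to 12.4) in wild types, 8.86 (6.56 to 11.1) in Q20, 8.88 (6 to 11.4) in Q50, 9.29 (7.34 to 12.8) in Q92 and 7.65 (5.98 to 11.3) in Q140 mice. The fitted log2 fold changes of the pair ran from -0.15 ± 0.16 for Hspa1a in Q20 mice to 0.28 ± 0.18 for Hspa1b in Q50 mice, both at 10 months.

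No line differed from wild types in Hspa8 past the threshold. At 10 months it had 1697 (1502 to 1900) in wild types, 1684 (1528 to 1949) in Q20, 1652 (1530 to 1739) in Q50, 1639 (1533 to 1677) in Q92 and 1774 (1665 to 1946) in Q140 mice, in CPM. At 6 months it had 1607 (1403 to 1749) in wild types, 1544 (1463 to 1672) in Q20, 1599 (1422 to 1749) in Q50, 1550 (1480 to 1812) in Q92 and 1572 (1472 to 1703) in Q140 mice. At 10 months the lowest Q140 library, at 1665 CPM, lay above the lowest wild type, and the highest Q92 library, at 1677 CPM, lay below the wild-type median. The log2 fold changes there were 0.066 ± 0.037 in Q140 mice (adjusted p = 0.468) and -0.07 ± 0.036 in Q92 mice (adjusted p = 0.376), neither past the threshold.

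**Figure D3:**
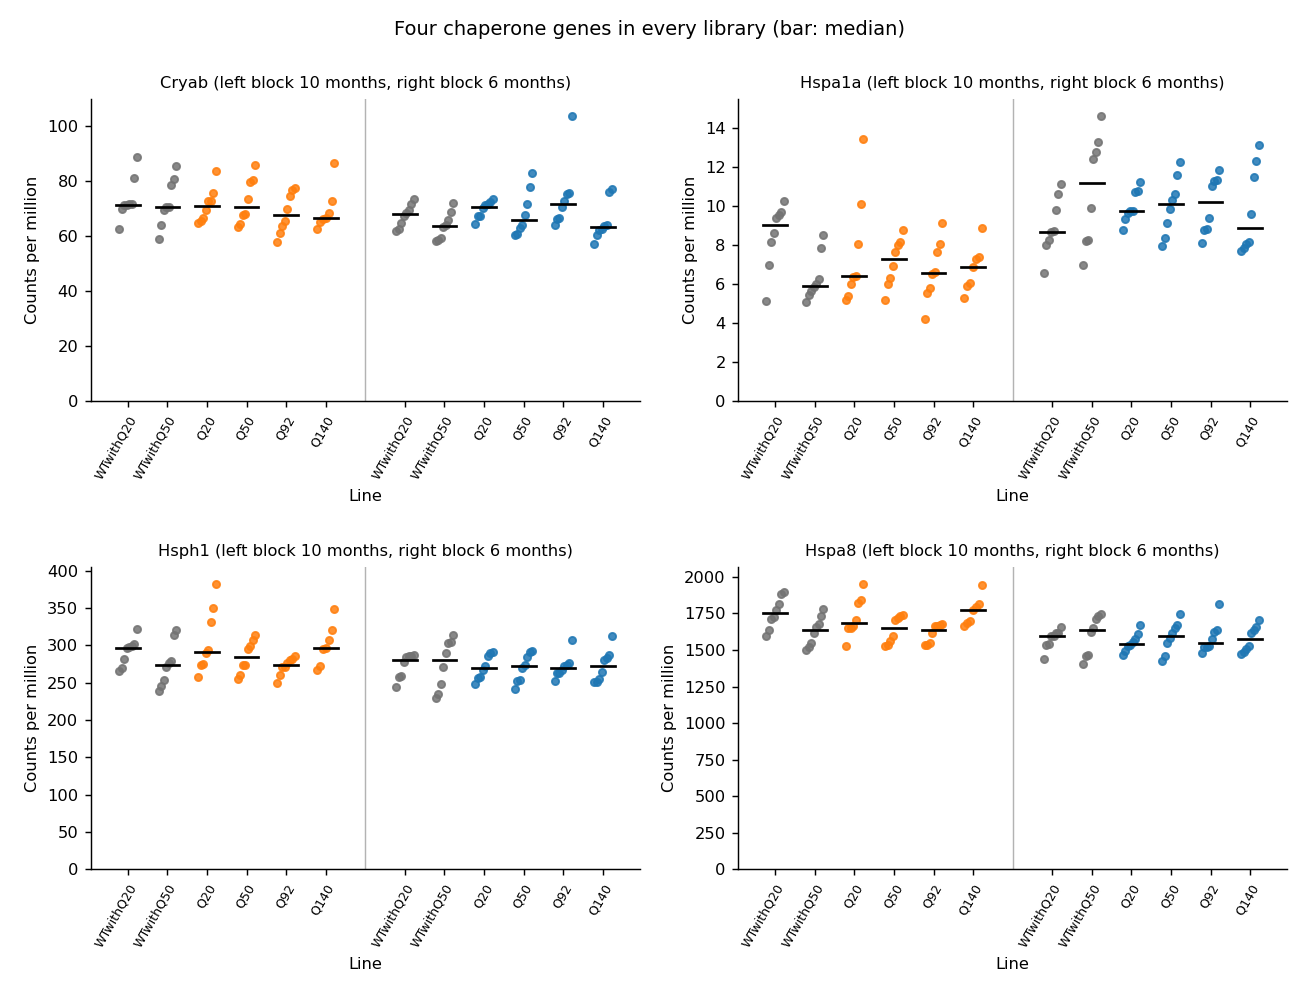
CPM (vertical, from 0) of Cryab, Hspa1a, Hsph1 and Hspa8 in each of the 95 libraries, by line (horizontal), with 10 months in the left and 6 months in the right block of each panel; grey points are wild types and bars are medians. The Q92 library of Cryab at 103.6 CPM stands above all others of that gene, and Hspa1a sits lower at 10 than at 6 months in each group but the wild types housed with Q20.

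Hsph1, the cytosolic HSP110 exchange factor of HSP70, had 280.4 (239 to 323) in wild types, 292 (258 to 382) in Q20, 285 (255 to 315) in Q50, 274 (250.2 to 286) in Q92 and 296 (267 to 349) in Q140 mice at 10 months, in CPM. Its level at 6 months was 281 (229.9 to 314) in wild types, 269 (249 to 291) in Q20, 272 (242 to 293) in Q50, 270 (252 to 307) in Q92 and 272 (251 to 313) in Q140 mice. The ranges overlapped throughout, and the highest library of all was a Q20 library of 10 months. Dnajb1, an inducible J-domain partner of HSP70, had 49.5 (41.4 to 58.5) in wild types, 49.03 (44.3 to 62.3) in Q20, 51.4 (42.8 to 53.5) in Q50, 49.5 (39.3 to 54.3) in Q92 and 51.5 (45 to 57.6) in Q140 mice at 10 months. At 6 months it had 51.2 (41.04 to 61.1) in wild types, 51.6 (45.3 to 57.2) in Q20, 51.1 (45.1 to 58.02) in Q50, 50.04 (38.7 to 62.8) in Q92 and 50.7 (44.2 to 55.7) in Q140 mice, again with overlapping ranges. No fitted log2 fold change of either gene lay outside -0.062 to 0.088.

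Hspa5, which senses and relieves unfolding in the endoplasmic reticulum, had 206 (164 to 262) in wild types, 207 (189.7 to 315) in Q20, 223 (169 to 290.3) in Q50, 208 (173 to 237) in Q92 and 205 (181 to 276) in Q140 mice at 10 months, in CPM. Its level at 6 months was 205 (162 to 248) in wild types, 203 (185 to 228) in Q20, 202 (159 to 262) in Q50, 210 (163 to 248) in Q92 and 188 (150.2 to 235) in Q140 mice. Its spread within groups was wide, and its largest fitted difference was 0.16 ± 0.081 in Q50 mice at 10 months (adjusted p = 1). Hsp90aa1, the inducible HSP90 of the cytosol, had 997 (922 to 1097) in wild types, 1003 (918 to 1154) in Q20, 1011 (960.3 to 1055) in Q50, 985 (944 to 1014) in Q92 and 1041 (951 to 1129) in Q140 mice at 10 months. At 6 months it had 954 (889.8 to 1043) in wild types, 939 (879 to 1007) in Q20, 957 (925 to 1061) in Q50, 962 (917 to 1108) in Q92 and 961 (864 to 988) in Q140 mice. Its log2 fold changes over the 8 line comparisons ran from -0.027 ± 0.034 in Q92 mice to 0.041 ± 0.036 in Q140 mice, both at 10 months, and the groups overlapped.

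Cryab at 10 months had 71.2 (58.98 to 88.5) in wild types, 70.9 (64.7 to 83.5) in Q20, 70.7 (63.1 to 85.6) in Q50, 67.6 (57.9 to 77.4) in Q92 and 66.6 (62.6 to 86.4) in Q140 mice, in CPM, and its differences there were not called. At 6 months it had 65.2 (58.3 to 73.3) in wild types, 70.6 (64.2 to 73.4) in Q20, 65.8 (60.4 to 82.96) in Q50, 71.6 (63.98 to 104) in Q92 and 63.1 (57.1 to 76.99) in Q140 mice. The 8 Q92 libraries of 6 months held 63.98, 66.1, 66.4, 70.4, 72.8, 75.4, 75.7 and 103.6 CPM, against 58.3 to 73.3 CPM in the 16 wild types. Of the 8, 3 lay above the highest wild type, 5 lay within the wild-type range, and 7 of 8 lay above the mean of wild types of their sex. Male replicate 3, at 103.6 CPM, was also 1 of the 2 libraries with a high mitochondrial share. Without it the log2 fold change was 0.10 (adjusted p = 0.24), and without both libraries it was 0.10 (adjusted p = 0.144), where Cct5 was called in its place, lower by 0.092 in both fits. DESeq2 also called Cryab (0.18, adjusted p = 0.0288), while voom called Cct5 in its place (-0.085, adjusted p = 0.00479). The call was also lost on leaving out any of 8 other libraries (log2 fold change 0.17 to 0.19, adjusted p 0.0502 to 0.0743), so that it was lost in 9 of 48 such fits. These 8 were female replicates 3 and 4 and male replicate 4 of Q92, female replicate 3 and male replicate 4 of WTwithQ20, and female replicates 3 and 4 and male replicate 4 of WTwithQ50.

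Markers of other cell types stood beside the Cryab difference as follows. Of the 10 oligodendrocyte markers 0 were called in Q92 mice at 6 months by the quasi-likelihood test, their median log2 fold change was 0.073, and their summed level was 4470 to 5115 CPM in Q92 and 3907 to 5234 CPM in wild types. The oligodendrocyte surface gene Mog gave 0.092 ± 0.048 (adjusted p = 0.28). All 15 genes of striatal projection neurons were lower in Q92 mice of that age, with summed levels of 602 to 745 CPM in Q92 and 843 to 1732 CPM in wild types, which did not overlap. The call on Cryab was lost with the striatal level as a covariate (0.12, adjusted p = 0.933). As the striatal levels of Q92 and wild-type libraries did not overlap, that fit separates the line from the striatal level only poorly. The loss therefore does not show whether the Cryab difference goes with the striatal level or with the line. The part of these genes in the Cryab difference was not tested.

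Expression of the 40 genes did not follow CAG length past the threshold. Over the 4 knock-in lines, the quasi-likelihood test called 0 of the 40 slopes at 10 months and 0 at 6 months, against 0.891% of 17620 genes at 10 months and 1.78% of 17504 genes at 6 months. DESeq2 and voom called 0 as well, and 2 slopes at 10 months and 0 at 6 months had an unadjusted p under 0.05, against 13.1% and 11.4% of all genes. The median slope was 0.011 per 100 repeats at 10 months and -0.0076 at 6 months. Hsf1, chosen after its values were seen, had a slope of -0.087 ± 0.042 per 100 repeats at 10 months (adjusted p = 0.376). The steepest fitted slope was that of Hspb1 at 6 months, -0.24 ± 0.13 per 100 repeats (adjusted p = 0.5), with an interval of -0.50 to 0.019.

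The 2 groups of wild types, whose labels give them different housing, differed from each other in 2 of these genes at 10 months and in 0 at 6 months. At 10 months WTwithQ20 mice were higher than WTwithQ50 mice in 2 of the 40 genes, Hsf1 by 0.19 ± 0.046 (adjusted p = 0.00786) and Hspa2 by 0.26 ± 0.067 (adjusted p = 0.0137), where 7.03% of all genes were called. Both were chosen after their values were seen. Hsf1 had a median of 27.99 (24.7 to 31.03) CPM in WTwithQ20 and 23.8 (22.6 to 27.6) CPM in WTwithQ50, and 5 of the 8 WTwithQ20 libraries lay above the WTwithQ50 range. Hspa2, an HSP70 gene best known for its part in sperm development, had a median of 30.9 (26.6 to 38.1) CPM in WTwithQ20 and 25.7 (23.1 to 28.1) CPM in WTwithQ50, with 6 of 8 above the range. Hspa1a had 9.02 (5.14 to 10.2) CPM in WTwithQ20 and 5.93 (5.07 to 8.52) CPM in WTwithQ50, and its log2 difference of 0.42 ± 0.16 was not called (adjusted p = 0.105). Without female replicate 2 of WTwithQ20 it was called, at 0.49 (adjusted p = 0.041), together with Dnajb2 at 0.13.

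Beside these differences at 10 months, 7 of 12 glucocorticoid-responsive genes were higher in WTwithQ20 mice, among them Zbtb16 by 0.85 ± 0.12 and Mt2 by 0.47 ± 0.096, with summed levels of 509.6 to 731 CPM in WTwithQ20 and 378 to 554 CPM in WTwithQ50. Of 15 striatal genes 14 were lower in WTwithQ20 mice, and with the striatal level as a covariate neither chaperone gene was called, at similar fold changes for Hsf1 (0.18, adjusted p = 0.101) and Hspa2 (0.29, adjusted p = 0.0623). The part of the glucocorticoid-responsive genes in the difference was not tested. At 6 months 0 of the 40 genes differed between the wild-type groups, where 0.0903% of all genes were called, 3 had an unadjusted p under 0.05, and DESeq2 and voom called 0. The direction for Hspa1a was then the other way, -0.27 ± 0.12 (adjusted p = 0.508), and that difference was not called.

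Between ages most of these genes differed in the knock-in lines, more of them higher than lower at 10 months. The inducible HSP70 genes Hspa1a and Hspa1b were lower in the mean of the knock-in lines and in that of the wild types, with unequal values in single groups. The libraries of each age form their own set, so that age and library set cannot be told apart. In the knock-in lines, taken as the mean of 4, 23 of the 40 genes were higher and 7 lower at 10 months, where 42.7% of 18187 genes were called. In wild types 11 were higher and 5 lower, where 23.4% of all genes were called. The knock-in age difference was added after that of the wild types was seen, and the genes named from either were picked with their values known. The median log2 fold change over the 40 genes was 0.08 in knock-in lines and 0.039 in wild types, beside 0.011 and -0.000039 over all genes. Of the calls, 13 were shared in direction, which is 43.3% of the knock-in and 81.2% of the wild-type calls, with 9 higher and 4 lower and 0 in opposite directions. The 4 lower in both were Hspa1a, Hspa1b, Hsf1 and Stub1.

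**Figure D4:**
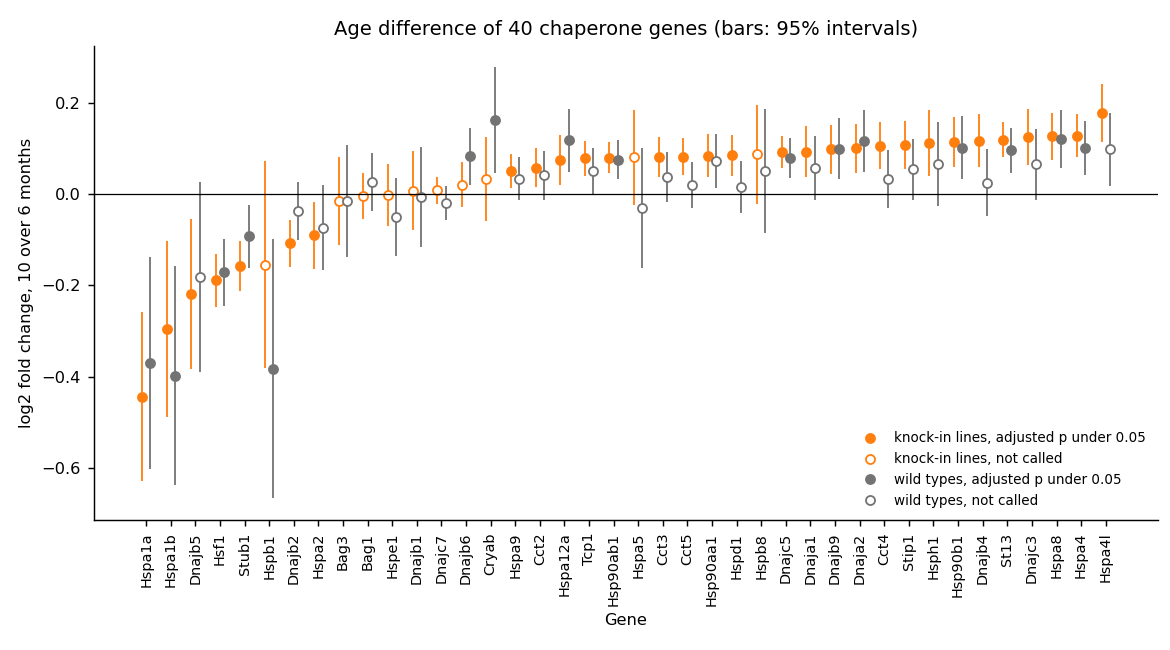
Log2 fold change of 10 over 6 months (vertical) for each of the 40 genes (horizontal, ordered by the knock-in value), with knock-in lines left of wild types at each gene and bars for 95% intervals; filled points passed an adjusted p of 0.05. Hspa1a lies lowest in the knock-in lines (-0.44) and Hspa4l highest (0.18).

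Among the HSP70 genes, 6 of 10 were higher and 3 lower at 10 months in knock-in lines, and 3 were higher and 2 lower in wild types. Hspa1a had a median of 6.63 (4.22 to 13.5) CPM in knock-in lines at 10 months and 9.77 (7.696 to 13.1) CPM at 6 months, a log2 difference of -0.44 ± 0.093, adjusted p = 5.49e-05. Of the 31 libraries of 10 months 22 lay below all 32 of 6 months, and 29 of 31 lay below the 6-month mean of their line and sex. In wild types it had 7.42 (5.07 to 10.2) CPM at 10 months and 9.26 (6.56 to 14.6) CPM at 6 months (-0.37 ± 0.12, adjusted p = 0.0144), and the values of the housing groups were unequal, a difference that was not tested. In WTwithQ50 mice alone the log2 difference was -0.71 ± 0.16 (adjusted p = 0.000389), and in WTwithQ20 mice alone it was -0.029 ± 0.15 (adjusted p = 0.943). The constitutive Hspa8 was higher at 10 months by 0.13 ± 0.025 in knock-in lines (adjusted p = 2.81e-05) and by 0.12 ± 0.032 in wild types (adjusted p = 0.00349), with medians of 1673 CPM at 10 and 1565 CPM at 6 months in knock-in lines and 1697 CPM at 10 and 1607 CPM at 6 months in wild types. The HSP110 genes Hspa4 and Hspa4l were higher in knock-in lines by 0.13 ± 0.024 and 0.18 ± 0.032 (adjusted p = 5.72e-06 and 3.41e-06), and Hspa4 also in wild types, by 0.10 ± 0.03.

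All 3 HSP90 genes were higher at 10 months in knock-in lines, Hsp90aa1 by 0.084 ± 0.024, Hsp90ab1 by 0.08 ± 0.017 and Hsp90b1 by 0.11 ± 0.027, and 2 of them in wild types. All 5 TRiC subunit genes were higher in knock-in lines, by 0.058 to 0.11, and 0 of the 5 were called in wild types, where 1 had an unadjusted p under 0.05. Their wild-type values were also all positive, at 0.020 to 0.051. The wild types had 16 libraries per age, and the median standard error over the 40 genes was 0.034 in them and 0.027 in knock-in lines. Counts of calls in the 2, here and above, thus differ in precision. Whether the age difference of these HSP90 and TRiC genes itself differed between knock-in lines and wild types was tested line by line as an interaction, which called 1 of them, Cct5 in Q140 mice. Of the 11 J-domain genes 6 were higher and 2 lower in knock-in lines, the 2 being Dnajb2 (-0.11 ± 0.026) and Dnajb5 (-0.22 ± 0.083), and 4 were higher in wild types. The regulator Hsf1 was lower at 10 months, with log2 fold changes of -0.19 ± 0.029 in knock-in lines (adjusted p = 9.84e-08) and -0.17 ± 0.037 in wild types (adjusted p = 0.000299). Stub1 was lower too, at -0.16 ± 0.028 in knock-in lines (adjusted p = 1.95e-06) and -0.093 ± 0.035 in wild types (adjusted p = 0.0427). The small heat shock protein genes gave 0 calls in knock-in lines, where 0 had an unadjusted p under 0.05, while in wild types Cryab was higher and Hspb1 lower, with log2 fold changes of 0.16 ± 0.058 and -0.38 ± 0.14 (adjusted p = 0.0323 and 0.04). Several of these wild-type values were unequal between the housing groups, which was not tested as a difference. Hsf1 gave -0.054 ± 0.049, adjusted p = 0.552, in WTwithQ20 mice alone and -0.29 ± 0.049, adjusted p = 7.38e-06, in WTwithQ50 mice alone. Hspa1b gave -0.11 ± 0.16, adjusted p = 0.744, in WTwithQ20 and -0.69 ± 0.16, adjusted p = 0.000888, in WTwithQ50 mice. Among single knock-in lines Hspa1b was called in Q92 mice alone, at -0.58 ± 0.16 (adjusted p = 0.00439). It was not called in Q20 (-0.13 ± 0.16), Q50 (-0.27 ± 0.16) or Q140 mice (-0.21 ± 0.17), and a difference between lines was not tested. For Hspb1 the values were -0.16 ± 0.19, adjusted p = 0.669, in WTwithQ20 and -0.61 ± 0.19, adjusted p = 0.013, in WTwithQ50 mice.

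Taken line by line, the age difference was called in 10 of the 40 genes in Q20, 14 in Q50, 9 in Q92 and 20 in Q140 mice, where 16.7%, 25.4%, 24.9% and 20.2% of all genes were called. In WTwithQ20 mice it was called in 1 gene, Hspa8, beside 9.29% of all genes, and in WTwithQ50 mice in 11, beside 21.3%. Of the calls, 26 in knock-in lines and 10 in wild types held when any library was left out. In wild types the calls on Hsp90b1, Dnajb9, Cryab, Hspb1, Stub1 and Dnajb6 were lost on leaving out any of 3, 2, 7, 8, 22 and 50 libraries, and in knock-in lines those on Cct2, Hspa12a, Hspa2 and Hspa9 on leaving out any of 12, 1, 9 and 18. Beside the age difference, 2 of 13 cold-inducible and clock genes were higher and 7 lower at 10 months in knock-in lines, and 1 was higher and 6 lower in wild types. The clock output gene Dbp was lower, with log2 fold changes of -0.53 ± 0.058 in knock-in lines and -0.60 ± 0.073 in wild types, and the summed level of the list was 1138 to 1443 CPM at 10 and 1147 to 1552 CPM at 6 months in knock-in lines, and 1134 to 1414 CPM at 10 and 1169 to 1441 CPM at 6 months in wild types. Striatal genes moved in opposite directions, with 5 of 15 higher at 10 months in knock-in lines and 12 of 15 lower in wild types. With their level as a covariate 30 of the 40 chaperone genes were called in knock-in lines and 10 in wild types. The share of all genes called in that fit is not given here. The part of these lists in the age difference was not tested.

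Whether the effect of a line differed between 10 and 6 months was tested as an interaction over all 95 libraries. It was called for 0 of the 40 genes in Q20 mice (0.693% of all genes), 0 in Q50 mice (0%), 1 in Q92 mice (9.63%) and 1 in Q140 mice (1.79%). At an unadjusted p under 0.05 the counts were 0, 1, 3 and 9 of the 40 in the lines from Q20 to Q140, against 13.7%, 4.12%, 23.1% and 14.9% of all genes, and DESeq2 and voom called 0 in Q20 and Q50 mice. In Q92 mice DESeq2 called Cryab and voom called Dnajb2 in its place. There Cryab gave -0.27 ± 0.087, adjusted p = 0.0316, from -0.095 ± 0.064 at 10 months and 0.18 ± 0.058 at 6 months. The call was lost without male replicate 3 of Q92 at 6 months, where the difference was -0.20 (adjusted p = 0.132), and on leaving out female replicate 1, female replicate 2 or male replicate 3 of Q92 at 10 months. Beside it 6 of 10 oligodendrocyte markers had a lower Q92 effect at 10 months, and Mog gave -0.21 ± 0.072 (adjusted p = 0.0469), while 10 of 15 striatal genes had a higher one, and their part was not tested.

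In Q140 mice the called gene was Cct5, at 0.14 ± 0.039, adjusted p = 0.0409, from 0.056 ± 0.027 at 10 months and -0.078 ± 0.029 at 6 months. It was chosen after its values were seen. Cct5 had a median of 116 (112 to 119) CPM in Q140 mice at 10 months and 104 (99.2 to 111) CPM at 6 months, so that all 7 libraries of 10 months lay above all 8 of 6 months. Wild types had 111 (106 to 126) CPM at 10 months and 111 (101 to 118) CPM at 6 months. The call was lost on leaving out any of 25 of the 95 libraries (log2 0.12 to 0.14, adjusted p 0.0505 to 0.141). All 5 TRiC genes had a positive interaction in Q140 mice, of 0.051 to 0.14, and 3 of them had an unadjusted p under 0.05. Of the 40 genes 31 had a positive value there, with a median of 0.056, so that the sign was not particular to TRiC. The TRiC genes also varied together within groups (Pearson r of 0.677 to 0.764) and are not separate observations. At 10 months 6 of 10 oligodendrocyte markers were lower in Q140 mice, among them Cldn11 by 0.46, and their summed level was 3187 to 4131 CPM in Q140 and 4255 to 5196 CPM in wild types, without overlap. The Q140 effect on 11 of 15 striatal genes was higher at 10 than at 6 months, and with the striatal level as a covariate Cct5 was not called, at a similar fold change (0.13, adjusted p = 0.4). The part of these markers in the values of Q140 mice was not tested further.

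Other genes of protein quality control, in lists that hold none of the 40, were set beside them. The 8 lists held 150 tested genes, namely 12 further HSP70, HSP110 and small heat shock genes, 32 J-domain, 11 TRiC and prefoldin, 17 HSP90 co-chaperone, 7 BAG and exchange factor, 27 endoplasmic reticulum stress, 31 proteasome and 13 ubiquitin and autophagy adaptor genes. By the quasi-likelihood test they gave 6 calls in Q20 mice at 10 months (4.0% of them, beside 4.35% of all genes), all lower, namely 2 proteasome genes, Hspb3 (-0.50 ± 0.15), Hsf4 (-0.25 ± 0.075), Tomm34 (-0.12 ± 0.032) and Cdc37 (-0.13 ± 0.04), the HSP90 partner for kinases, while 13 of 15 striatal genes were higher there. The same 150 genes gave 6 calls, all higher, in WTwithQ20 against WTwithQ50 mice at 10 months (4.0%, beside 7.03% of all genes). WTwithQ20 mice were the reference of the Q20 line, and their part in the Q20 calls was not tested. At 6 months the listed genes gave 1 call in Q92 mice, Sgtb (0.13 ± 0.041), beside 7.83% of all genes, and 1 in Q140 mice, Edem1 (0.13 ± 0.038), beside 3.52%. Between ages in knock-in lines 38 of the listed genes were higher and 26 lower at 10 months (42.7%, beside 42.7% of all genes). Of the J-domain list 12 were higher and 2 lower, of the HSP70, HSP110 and small heat shock list 2 and 2, of the TRiC and prefoldin list 5 and 2, of the HSP90 co-chaperone list 4 and 4, of the BAG list 1 and 2, of the stress targets 6 and 5, of the proteasome list 3 and 6, and of the adaptors 5 and 3. Among them Canx, a lectin chaperone, was higher by 0.16 ± 0.019, and Fkbp8, an immunophilin, was lower at -0.31 ± 0.036.

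Within groups, relations between the genes ranged from positive to negative. After the mean of each of the 24 groups of line, age and sex was subtracted, the 780 pairs of the 40 genes had a median Pearson r of 0.28, and 234 pairs had r above 0.5, as a description over 95 libraries that share depth and dissection. The highest was Hspd1 with Dnaja1 (0.877) and the lowest Hspa4l with Stub1 (-0.696). The share of pairs with r above 0.5 over all genes was not computed, so that the 234 are not shown to be particular to the 40. In single libraries most of the 40 moved together. In male replicate 1 of WTwithQ50 at 10 months 38 lay below their group mean, and in male replicate 2 of that group 37 lay above it. By permutation within groups, 6 relations were tested (100000 resamples, two-sided, adjusted over the 6). They were chosen with earlier results of these data known. The permutation sets each pair against no relation, while the median r over the 780 pairs was 0.28. A small p therefore does not mark a pair of the 40 as closer than their other pairs. Hsph1 and Dnajb1 had r = 0.745 and Spearman's rho = 0.745, both with an adjusted permutation p of 1.5e-05, from the smallest p the resamples can give (1e-05). The value was 0.726 without the 2 libraries farthest from the median of Hsph1, 0.795 within 10 months and 0.705 within 6 months. Hsph1 and Hspa5, of cytosol and endoplasmic reticulum, had r = 0.715 and rho = 0.679 (adjusted permutation p = 1.5e-05 for each), and 0.661 without the 2 farthest libraries. Within 10 months their r was 0.742 and within 6 months 0.684.

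Hspa1a and Hspa1b had r = 0.748 and rho = 0.723 (adjusted permutation p = 1.5e-05 for each), and 0.72 without the 2 farthest libraries, for a pair whose shared reads cannot be told apart. Within 10 months r was 0.745 and within 6 months 0.757. Hspa5 and Dnajb9, which both answer stress in the endoplasmic reticulum, were only weakly related, with r = 0.236 (adjusted permutation p = 0.027) and rho = 0.206 (adjusted permutation p = 0.073), and r was 0.174 without the 2 farthest libraries, 0.241 within 10 months and 0.234 within 6 months. Cryab and Mog had r = 0.467 (adjusted permutation p = 0.00066) and rho = 0.407 (adjusted permutation p = 0.00073), and r was 0.402 without the 2 farthest libraries, 0.439 within 10 months and 0.506 within 6 months. Hspd1 and Hspe1, the mitochondrial chaperonin and its lid, whose genes start back to back, were added after the 6 and had r = 0.546 and rho = 0.526 (adjusted permutation p = 2.8e-05 and 4.2e-05 over 7). Their r was 0.527 without the 2 farthest libraries, 0.656 within 10 months and 0.484 within 6 months. With the code beginning with L in the sample names also removed, the 7 values of r were 0.708 for Hsph1 with Dnajb1, 0.684 for Hsph1 with Hspa5, 0.769 for Hspa1a with Hspa1b, 0.196 for Hspa5 with Dnajb9, 0.501 for Cryab with Mog, 0.581 for Hspd1 with Hspe1 and -0.828 for the relation of Hsph1 with Cirbp that follows.

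The strongest of the tested relations was a negative one, between Hsph1 and Cirbp, the RNA-binding protein gene induced by mild cold. It had r = -0.843 and rho = -0.816 (adjusted permutation p = 1.5e-05 for each), -0.813 without the 2 farthest libraries, -0.902 within 10 months and -0.726 within 6 months. The library with Hsph1 farthest below its group mean was male replicate 3 of Q20 at 10 months, at -0.34 for Hsph1 and 0.45 for Cirbp on the log2 scale, and the one farthest above was female replicate 2 of WTwithQ50 at 10 months, at 0.24 for Hsph1 and -0.31 for Cirbp. Of all 18187 genes tested, Hsph1 had the most negative r with Cirbp. As a description with no test, 13 of the 40 genes (32.5%) had r below -0.5 with Cirbp, against 3.23% of all 18186 genes tested other than Cirbp, and the median was -0.29 against 0.011. Within 10 months 19 of the 40 had r below -0.5, against 5.47% of all genes, and within 6 months 6 did, against 4.55%. For Hspa8 r was -0.831 within 10 and -0.365 within 6 months, and for Hspa4 -0.81 and -0.536; a difference between ages was not tested. After Hsph1 these were led by Hspa4 (-0.692), Hsp90b1 (-0.673), Hspa8 (-0.656), Dnajb1 (-0.65) and Hspa5 (-0.635). Hspa1a did not share the pattern (0.0128), nor did Hspa2 (0.0352), and Stub1 had the highest value (0.372).

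**Figure D5:**
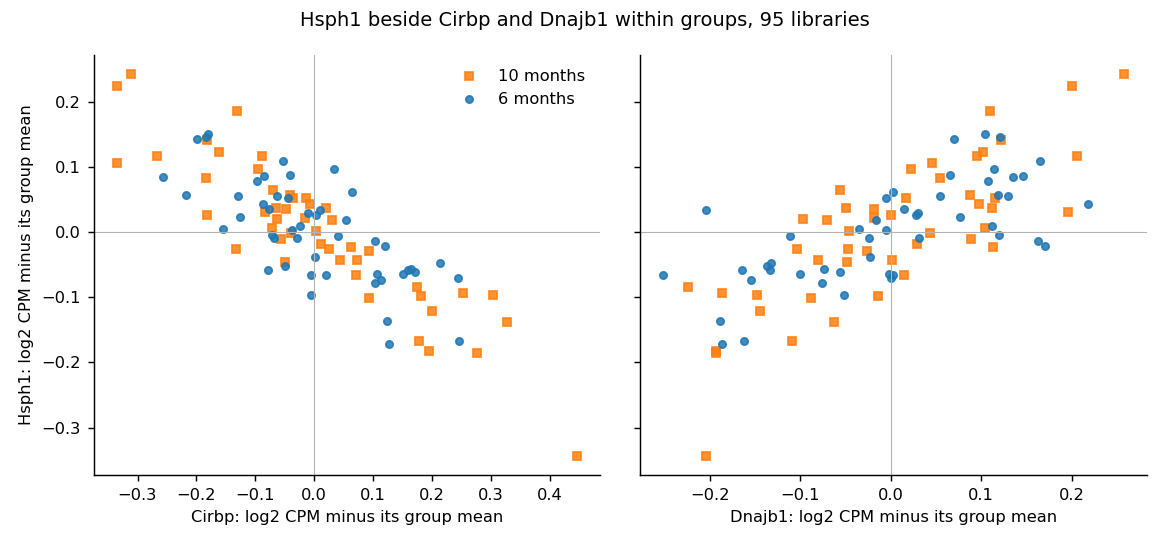
Log2 CPM minus the group mean of Hsph1 (vertical) against that of Cirbp (left) and Dnajb1 (right) in 95 libraries, squares for 10 and circles for 6 months. Hsph1 falls as Cirbp rises (r = -0.843) and rises with Dnajb1 (r = 0.745).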

How the data were processed

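RNA-seq was measured in 95 cortex libraries, 48 at 6 months and 47 at 10 months, of 30334161 to 41082838 counts. RNA was extracted from flash-frozen tissue and made into Illumina libraries, per the labels' protocols. The authors deposited estimated counts per gene, of which 67% of the nonzero values were whole numbers, and FPKM values for the same libraries. CASAVA 1.8.2 is named in the submitters' processing notes, while for the aligner, counting tool, genome build, annotation and strand setting the setting is not given in the sources used. Of 39179 gene identifiers 37607 were matched to symbols.

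The deposited estimated counts, after rounding to integers, were tested with edgeR 4.0.16 (quasi-likelihood, TMM scaling, filterByExpr with a minimum count of 10 and a minimum total of 15) in R 4.3.3, with sex as a covariate. Each age was fitted alone for line comparisons and CAG slopes, and all libraries together for age and interactions. P-values were adjusted by Benjamini-Hochberg over all genes tested, and errors are SE unless named SD. The deposited FPKM values were used for levels between genes and, as log2(FPKM + 0.1) or log2(FPKM + 1), in limma 3.58.1. Other alternatives were DESeq2 1.42.0, voom, filters, covariates, single housings or sexes, and leaving out each library. No 2 libraries of a group agreed within sampling noise (chi-square per degree of freedom of at least 3.84 over 141 pairs).

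The 40 genes, the other lists and the relations were chosen with earlier results of these data known. Values per group are given for 8 named genes and for those called in a line comparison. Other members are given by counts and extremes.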

Additional observations from a re-analysis of the deposited data

Results flagged for a closer look

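In 4 of 96 sets of 8 (or, for Q140 at 10 months, 7) libraries of 1 line, age and named gene, a library stood apart from the others by Dixon's test, which chance does in about 1 in 20 sets. Cryab was at 103.6 CPM in male replicate 3 of Q92 at 6 months, where the next library had 75.66 CPM. The same library had 1108 CPM of Hsp90aa1, where the next had 986.3 CPM, and it was 1 of the 2 libraries with a high mitochondrial share. Hsp90aa1 was also high in male replicate 3 of Q50 at 6 months, at 1061 CPM against 979.5 CPM in the next library. Hspa1b was low in female replicate 2 of WTwithQ20 at 10 months, at 4.829 CPM, where the other 7 had 7.11 to 9.352 CPM.

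The effect of a line differed between ages by the interaction test for 2 of the 40 genes. The Q92 effect on Cryab was lower at 10 than at 6 months by 0.27 on the log2 scale (-0.27, adjusted p = 0.0316 by edgeR's quasi-likelihood test). The Q140 effect on Cct5 was higher at 10 months by 0.14 (adjusted p = 0.0409 by the same test).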

How the results depend on the processing

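Counts of called genes among the 40 moved as follows. Except for single groups in the age difference, the share of all genes called under each setting is not given. The same holds for the DESeq2 and voom counts above. A move may thus follow the number of calls over all genes and need not be particular to the 40. The 1 call in Q92 mice at 6 months became 0 without the filter on low counts, on log2(FPKM + 0.1) with and without the filter, on log2(FPKM + 1), with the replicate block, with the L code or the striatal level as a covariate, with either wild-type housing alone and in females or males alone. The 0 in Q140 mice at 6 months became 1 by DESeq2, 2 by voom, 1 at a mean of at least 5 CPM and 2 without the 2 libraries with high mitochondrial counts. The 0 in Q20 mice at 10 months became 2 by voom and 2 in males alone. The 0 in Q92 mice at 10 months became 1 against wild types housed with Q20 alone, and the 0 in Q140 mice became 1 by voom. The 2 between wild-type groups at 10 months became 4 by voom, 1 on log2(FPKM + 0.1) without the filter, 0 with the striatal covariate and 1 in either sex alone. The 16 age calls in wild types became 10 with the striatal covariate and 1 in wild types housed with Q20 alone, and the 30 in knock-in lines became 10 in Q20, 14 in Q50 and 9 in Q92 mice alone. The Q92 interaction fell to 0 calls on log2(FPKM + 0.1) without the filter, without the 2 libraries with high mitochondrial counts, with the striatal covariate and with either wild-type housing alone. The Q140 interaction fell to 0 calls without the filter, on log2(FPKM + 0.1) without the filter, with the L code, with the striatal covariate and with wild types housed with Q50 alone. Values for single lines, housings or sexes rest on fewer samples, and the cause of the other changes was not tested.

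Leaving out each library in turn gave 27 to 30 age calls in knock-in lines, 11 to 18 in wild types, 0 to 2 calls in Q140 and Q92 mice at 6 months and in Q20 mice at 10 months, 0 to 1 in the Q92 and Q140 interactions, 2 to 4 between wild types at 10 months and 0 to 0 elsewhere. Calls were gained in Q20 mice at 10 months without female replicate 4 of Q20 (Dnajb2 -0.12, Stub1 -0.15), in Q92 mice at 6 months without female replicate 4 of Q50 (Dnajb6 0.099), and in Q140 mice at 6 months without male replicate 3 of Q92 (Dnajc7 -0.068, Cct5 -0.078) or female replicate 4 of WTwithQ50 (Dnajc7 -0.073). Of 51 single-gene results, 170 of 4702 values lost their call and 0 changed sign on leaving out a library, and under other settings 164 of 775 lost it and 1 changed sign, the age difference of Hspa9 in Q20 mice alone (-0.0048). The relation of Hspa5 with Dnajb9 kept r = 0.236 without the 2 libraries with high mitochondrial counts, with an adjusted permutation p of 0.051.

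Replicate numbers did not pair the libraries: of 94 pairs 12 correlated above 0.1 (median -0.0033), and in 24 the own number correlated best. With the replicate as a block, the 1 call in Q92 mice at 6 months became 0 and no other count changed. The widest spread within groups was that of Hspb1, Hspa1b and Hspa1a, 3 of the 8 members below 15 FPKM.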
